A study of Homo sapiens with 18 samples.

Results

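The 10 genes described here are PIM1, PIM2, PIM3, SOCS1, SOCS2, SOCS3, CISH, OSM, BCL6 and ID1, which have been linked to the transcription factor STAT5. They were chosen by symbol, with earlier results of these data known, and each matched 1 Ensembl ID among the 40184 IDs of the deposited expression table. All 10 were among the 16262 genes that passed the filter on low values. RNA-seq was carried out on 18 libraries of 3 human acute myeloid leukaemia cell lines, with 3 replicates in each of 6 groups. Molm-14 and MV4-11 have the genotype FLT3-ITD, an internal tandem duplication in the receptor tyrosine kinase FLT3. SKNO-1 has the genotype KIT N822K, and its medium, RPMI with fetal bovine serum as for the other lines, also held 10 ng/mL of GM-CSF, so the line, its KIT mutation and the growth factor cannot be told apart. Every line was given either vehicle (DMSO) or 500 nM RMC-4550 for 24 h. RMC-4550 is an allosteric inhibitor of the phosphatase SHP2. Each genotype is represented by established lines only, FLT3-ITD by 2 lines and the KIT mutation by 1. The labels call the replicates biological, but no source used here says that they came from separate cultures, and p-values measure the spread between these libraries.

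Cytokine receptors such as the GM-CSF receptor, and mutant receptor kinases such as FLT3-ITD, activate STAT5, which enters the nucleus and binds paired half-sites in DNA. CISH, SOCS1, SOCS2 and SOCS3 are known as negative feedback genes of this pathway, since their proteins bind activated receptors or JAK kinases and limit further signalling. PIM1, PIM2 and PIM3 encode serine/threonine kinases without a regulatory domain, whose activity follows the amount of protein made, and PIM genes have been described as transcriptional targets of FLT3-ITD and STAT5 in myeloid leukaemia. OSM encodes the cytokine oncostatin M, BCL6 a transcriptional repressor that can occupy STAT5 sites, and ID1 an inhibitor of basic helix-loop-helix factors. The comparisons address whether the transcripts of this set kept their level when SHP2 was inhibited, in lines with FLT3-ITD and in a line grown with GM-CSF. STAT5 protein and its phosphorylation were not measured.

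The upstream sequence of CISH is shown because CISH rose in every line and its window held more STAT matches than that of any other member. The RefSeq promoter table (GRCh38.p14) held 8 of the 10 genes, in 10 windows. SOCS2 and OSM had no entry. The 250 bases before each start were searched on both strands for the palindromic STAT motif TTCNNNGAA. In the runs below, written 5′ to 3′ on the minus strand, capitals mark the matches. The run with the distal CISH pair lay at chr3:50611991-50612020, 246 to 217 bases before the start, within an annotated exon of MAPKAPK3 on the opposite strand. Its matches were at 241 to 233 and 230 to 222 bases before the start. The run with the proximal pair lay at chr3:50611832-50611907, 133 to 58 bases before the start, with its matches at 129 to 121 and 112 to 104.
CISH distal pair: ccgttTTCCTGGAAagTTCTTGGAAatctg
CISH proximal pair: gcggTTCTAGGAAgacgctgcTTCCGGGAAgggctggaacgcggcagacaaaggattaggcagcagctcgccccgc
The only other member with a match was BCL6, at 28 to 20 bases before the first of its annotated starts. The run with this match lay at chr3:187745479-187745506, from 38 to 11 bases before that start. It is shown for comparison, since BCL6 changed in a way that differed between lines.
BCL6 match: gaagctcaaaTTCCGAGAAttgagctct
Of the 35116 windows of 250 bases in the table, 6.57% held at least 1 match and 0.0142% held 4 or more. CISH held 4. The other 6 genes with an entry had no match, which says only that these letters are not in these windows. The same half-sites with 4 bases between them, the STAT6-type spacing, were in 5.38% of windows and in no member's. TGANTCA, the AP-1 motif, was in 6.57% of windows and in the second BCL6 window. TGTTTAC, a forkhead motif, was in 2.98% of windows and in no member's. A match is a description of the sequence, and no binding was measured here.

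Read totals lay between 17434810 and 19959917 per library. Reads of mitochondrial genes took 5.07% to 7.02% in 14 libraries and 10.5% to 15.0% in the other 4, which were replicate 2 of Molm-14 with RMC-4550, replicates 1 and 3 of MV4-11 with DMSO and replicate 1 of MV4-11 with RMC-4550. A mean of at least 1 CPM in every group was found for 5 of 6 myeloid markers (CD33, MPO, SPI1, PTPRC and LYZ), and for no T-cell or erythroid marker. Replicate 2 of Molm-14 with RMC-4550 stood apart in single markers. It had 19 reads of the erythroid marker HBB, against 0 in replicates 1 and 3, and 20 of ALAS2, against 7 and 5. Its LYZ reads were 655, against 2287 and 2196. The epithelial markers EPCAM, KRT19 and CDH1, the B-cell marker MS4A1 and the fibroblast marker DCN were at 3 reads or fewer in every library. With RMC-4550 the summed epithelial markers, carried by KRT8 and KRT18, went from 17.3 to 19.3 CPM up to 25.6 to 38.4 CPM in Molm-14 and from 33.8 to 37.3 up to 47.5 to 48.6 CPM in SKNO-1. The summed B-cell markers went from 16.3 to 19.2 CPM down to 8.09 to 11.0 CPM in Molm-14 and overlapped in the other lines. Of the B-cell markers tested, 1 of 2 was lower in Molm-14 and 1 of 4 higher in SKNO-1, in both cases PAX5, at -1.25 (limma adjusted p = 0.00184) and 1.88 (adjusted p = 0.000118). The myeloid sums were higher with RMC-4550 in each line (888 to 914 against 961 to 1027 CPM, 846 to 877 against 898 to 903, and 1133 to 1154 against 1244 to 1311). The single myeloid markers did not all follow these sums. Of the 5 tested for Molm-14, 1 was called higher and 1 lower (limma), with a median log2 change of -0.21. No myeloid marker was called for SKNO-1 (median 0.14) or MV4-11 (median 0.05). Beside these B-cell and myeloid counts, 21.5% of all genes tested were called higher and 25.2% lower in Molm-14. The shares were 10.8% and 16.2% in SKNO-1, and 5.85% and 8.03% in MV4-11. The fibroblast sum was higher in MV4-11 (3.77 to 4.96 against 7.80 to 9.56 CPM). The part of these shifts in the results was not tested. MV4-11 ranked in the middle of the lines in DMSO for 53.0% of 15481 genes and for 6 of the 10 members, while Molm-14 did so for 21.1% of genes and SKNO-1 for 25.8%. Of 9261 genes at 10 CPM or more in Molm-14, 69 had less than 1% of that level in SKNO-1 and 0 did in MV4-11. The part of this ranking in the results was not tested. In these bulk samples, fewer cells of a type and less RNA per cell cannot be told apart.

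In DMSO the 10 genes were present in all 3 lines, but each line had its own order. Levels are given as CPM, which puts the reads of every library on a common size, and means carry the SD of 3 libraries. SKNO-1 was highest in PIM1, CISH and ID1. Molm-14 was highest in SOCS2, BCL6 and PIM3. SOCS1 ranged from 5.52 to 7.44 CPM over the group means of the 3 lines, and OSM from 3.96 to 4.66 CPM.

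**Figure D1:**
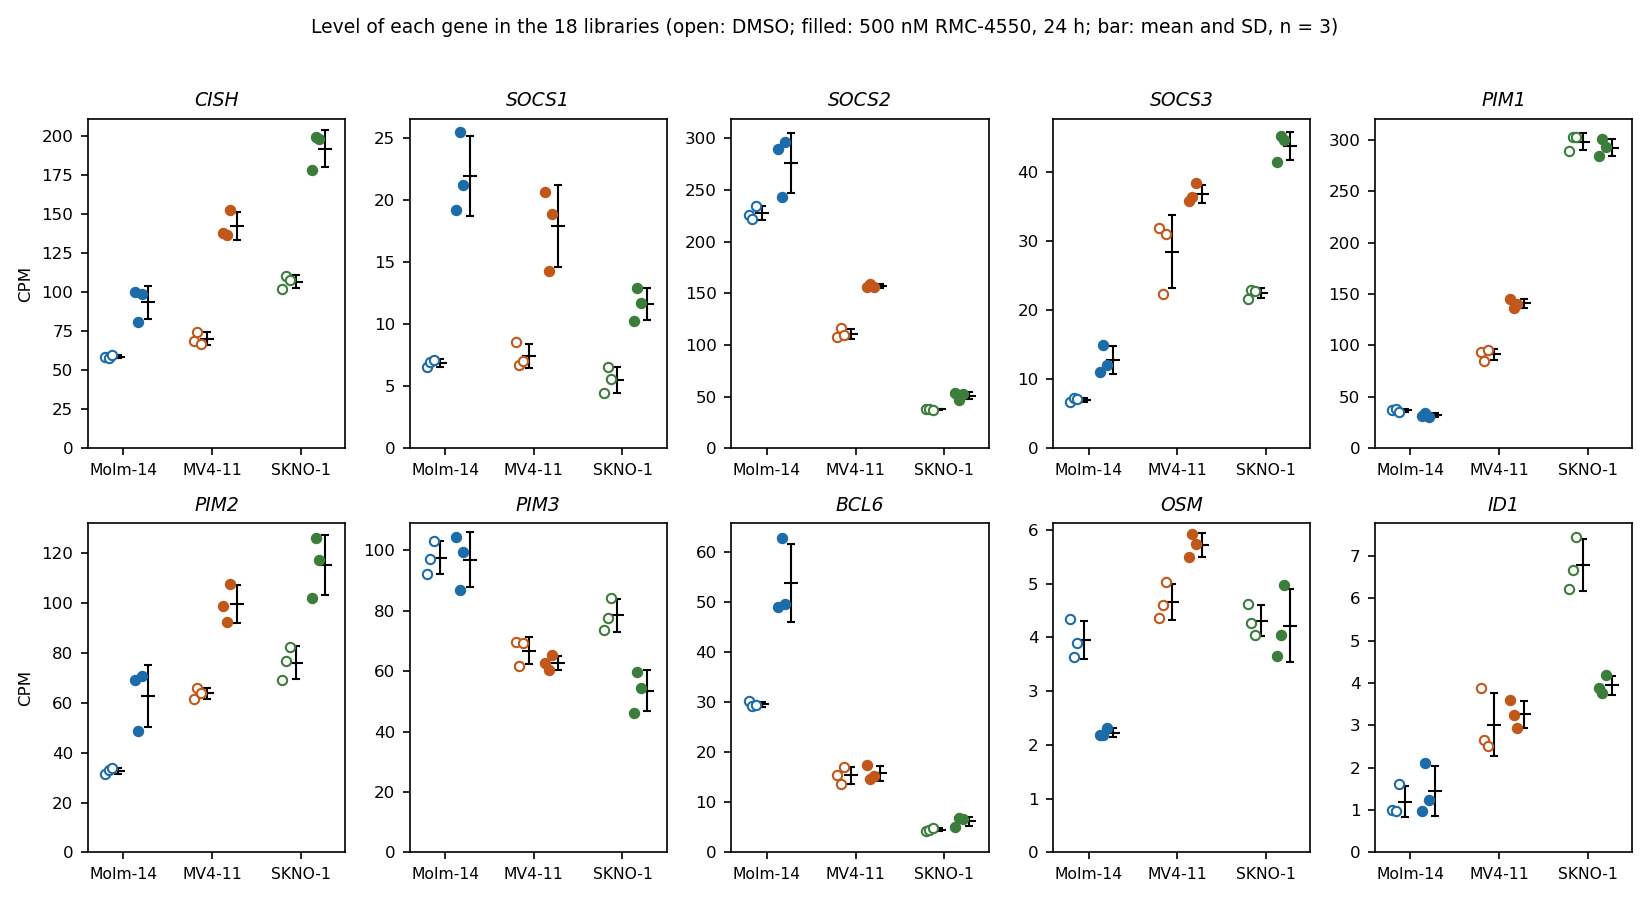
Level in CPM (vertical axis, from 0) of each of the 10 genes in the 3 libraries of each group, with open points for DMSO, filled points for RMC-4550, and bars for the mean and SD. CISH, SOCS1, SOCS2, SOCS3 and PIM2 lie higher with RMC-4550 in every line without overlap, while PIM1 differs mainly between lines.

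Between SKNO-1 and Molm-14 in DMSO, 5 members were higher and 3 lower in SKNO-1 (limma, adjusted p under 0.05), where 31.8% of the 14793 genes tested were higher and 33.6% were lower. Between SKNO-1 and MV4-11, 3 were higher and 3 lower in SKNO-1, where 20.1% of genes were higher and 22.4% lower. Between the FLT3-ITD lines, 3 were higher and 5 lower in Molm-14, where 29.1% of genes were higher and 25.1% lower. In either direction, 8, 6 and 8 of the 10 members were called, against 65.3%, 42.5% and 54.2% of all genes.

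CISH (ENSG00000114737, chr3:50606489-50611774) encodes the SH2 protein first described as a cytokine-induced feedback gene. In Molm-14 with DMSO its level was 58.1, 57.8 and 59.5 CPM. MV4-11 had 68.8, 74.6 and 66.8 CPM, and SKNO-1 102, 110 and 107 CPM. The 3 lines did not overlap, in the order Molm-14, MV4-11, SKNO-1. SKNO-1 exceeded Molm-14 by 0.86 on the log2 scale (SE 0.09, limma adjusted p = 2.2e-07) and MV4-11 by 0.61 (adjusted p = 4.44e-05). The difference between the FLT3-ITD lines was -0.26 (adjusted p = 0.0201) and no longer passed without any 1 of 3 libraries, replicates 1 and 2 of Molm-14 and replicate 2 of MV4-11, or without the filter on low values.

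RMC-4550 raised CISH in all 3 lines. Molm-14 with the inhibitor had 100, 80.9 and 98.6 CPM, a fitted change of 0.67 on the log2 scale (SE 0.09, limma adjusted p = 1.83e-05). In MV4-11 the values were 137, 137 and 152 CPM, a change of 1.02 (SE 0.09, adjusted p = 1.07e-06). In SKNO-1 they were 178, 199 and 198 CPM, a change of 0.84 (SE 0.09, adjusted p = 3.09e-06). No treated library overlapped the DMSO libraries of its line, and the lowest treated value in Molm-14 was that of replicate 2, the library with 15.0% mitochondrial reads. The CISH response of SKNO-1 differed from the mean response of the FLT3-ITD lines by 0.00 (SE 0.11, adjusted p = 0.997). The response of Molm-14 was lower than that of MV4-11 by a difference of -0.35 (SE 0.12) that did not pass (adjusted p = 0.0546), but passed in 6 of 24 alternatives, 4 of which left out 1 library (replicates 1 and 3 of Molm-14 with RMC-4550, replicate 2 of MV4-11 with DMSO and replicate 1 with RMC-4550). Split by mitochondrial share, the CISH change in MV4-11 was 0.95 below 10% (2 treated, 1 DMSO library) and 1.02 above (1 treated, 2 DMSO). CISH shares 218 of 5112 exon bases with MAPKAPK3 on the opposite strand, and the strand setting of the counting is not given in the sources used here. MAPKAPK3, a kinase gene with 45.9 to 192 CPM, passed the response test in no line with changes of -0.38, 0.39 and 0.17 (limma adjusted p of 0.131, 0.24 and 0.589). In DMSO MAPKAPK3, like CISH, was higher in SKNO-1 than in Molm-14 (0.96, limma adjusted p = 0.000495) and than in MV4-11 (0.70, adjusted p = 0.0102). Its difference between Molm-14 and MV4-11 was -0.25 (adjusted p = 0.294). Reads of the 2 genes cannot be told apart in the shared part, and their part in the CISH levels was not tested.

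SOCS1 (ENSG00000185338, chr16:11254417-11256204), whose protein binds and inhibits JAK kinases, had the largest rise of the 10 genes in each line. Its DMSO level was 6.56, 6.92 and 7.13 CPM in Molm-14, 8.56, 6.70 and 7.06 in MV4-11, and 4.43, 6.52 and 5.60 in SKNO-1. The levels of Molm-14 and MV4-11 overlapped. With RMC-4550 Molm-14 reached 19.2, 25.5 and 21.2 CPM, a change of 1.66 (SE 0.17, limma adjusted p = 1.36e-06). MV4-11 reached 20.7, 14.3 and 18.9 CPM, a change of 1.26 (SE 0.17, adjusted p = 9.95e-05). SKNO-1 reached 10.3, 12.9 and 11.7 CPM, a change of 1.08 (SE 0.17, adjusted p = 0.000175). All treated libraries were above all DMSO libraries of their line, by 3.20-fold, 2.41-fold and 2.11-fold on the means. These responses were not shown to differ: Molm-14 minus MV4-11 was 0.41 (SE 0.24, adjusted p = 0.216), and SKNO-1 minus the mean of the FLT3-ITD lines was -0.38 (SE 0.21, adjusted p = 0.445). The lower DMSO level of SKNO-1 than of MV4-11 (-0.44, adjusted p = 0.0461) did not pass in 14 of 18 alternative analyses, 4 of which left out 1 library (replicates 1 and 3 of either line). SKNO-1 minus Molm-14 was -0.33 and did not pass (adjusted p = 0.0946), but passed in 5 of 18 alternatives, among them the omission of replicate 2 of SKNO-1 (-0.46), the mitochondrial covariate (-0.32) and quantile normalization (-0.47), and was -0.18 without replicate 1 of SKNO-1. RMI2, a gene on the opposite strand that spans SOCS1 without sharing exon bases, fell by 1.19, 1.03 and 1.69 on the log2 scale (adjusted p of 5.75e-07, 1.5e-05 and 2.89e-08).

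SOCS2 (ENSG00000120833, chr12:93569969-93626236) encodes a regulator of growth hormone and cytokine receptors and showed a line order opposite to that of CISH. Molm-14 in DMSO had 226, 222 and 235 CPM, MV4-11 had 107, 117 and 109, and SKNO-1 had 37.8, 37.6 and 37.2. No lines overlapped. Molm-14 exceeded MV4-11 by 1.04 on the log2 scale (limma adjusted p = 2.06e-08), and SKNO-1 lay below Molm-14 (-2.60, adjusted p = 9.55e-14) and below MV4-11 (-1.56, adjusted p = 2.35e-10). SOCS2 rose with RMC-4550 in all 3 lines, and the rises were not shown to differ (Molm-14 minus MV4-11 -0.23, adjusted p = 0.151; SKNO-1 minus the FLT3-ITD mean 0.05, adjusted p = 0.939). Molm-14 went to 290, 243 and 296 CPM, a change of 0.28 (SE 0.08, adjusted p = 0.00988) that did not pass in a fit of this line alone. MV4-11 went to 156, 159 and 157 CPM (0.50, SE 0.08, adjusted p = 0.000448), and SKNO-1 to 53.6, 47.0 and 52.3 CPM (0.44, SE 0.08, adjusted p = 0.000651). The treated and DMSO libraries did not overlap in any line. SOCS2-AS1, a transcript on the opposite strand that shares 277 of 6776 SOCS2 exon bases, rose as well, by 0.40, 0.50 and 0.74 (adjusted p of 0.0267, 0.0244 and 0.000773). In DMSO it had the line order of SOCS2. SKNO-1 minus Molm-14 was -2.65, SKNO-1 minus MV4-11 was -1.81 and Molm-14 minus MV4-11 was 0.84 for SOCS2-AS1. The reads of the pair cannot be told apart in the shared part.

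SOCS3 (ENSG00000184557, chr17:78356778-78360925), the feedback inhibitor of gp130-type receptors, was lowest in Molm-14. That line had 6.67, 7.21 and 7.13 CPM in DMSO, against 31.9, 22.4 and 31.1 in MV4-11 and 21.7, 22.9 and 22.7 in SKNO-1. Molm-14 lay below MV4-11 by a difference of -2.0 on the log2 scale (limma adjusted p = 2.36e-09), and below SKNO-1 (SKNO-1 minus Molm-14 1.68, adjusted p = 7.24e-09), while MV4-11 and SKNO-1 overlapped and their difference did not pass (-0.32, adjusted p = 0.0536). That SOCS3 difference passed in 4 of 18 alternatives (voom weights, the filter at 5 CPM, log2(CPM + 1), and without replicate 2 of MV4-11, at -0.49), and was 0.0063 among libraries under 10% mitochondrial reads. With RMC-4550 SOCS3 rose in Molm-14 to 11.1, 15.0 and 12.05 CPM (0.85, SE 0.13, adjusted p = 7.11e-05). In SKNO-1 it rose to 41.5, 45.2 and 44.6 CPM (0.96, SE 0.13, adjusted p = 4.03e-05). MV4-11 had 35.9, 36.4 and 38.4 CPM, all above its DMSO values, with a change of 0.39 (SE 0.13) that did not pass (adjusted p = 0.0537). Of the MV4-11 DMSO libraries, replicate 2 was lowest and was the only 1 under 10% mitochondrial reads. The SOCS3 change in MV4-11 was 0.74 below the 10% mark and 0.19 above it. It was called higher in 7 of 18 alternative analyses, 1 of which left out replicate 1 with DMSO.

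The PIM kinases did not move together. PIM1 (ENSG00000137193, chr6:37170152-37175428) had the widest difference between lines of the 10 genes. Molm-14 had 37.5, 37.8 and 35.5 CPM in DMSO, MV4-11 had 93.9, 84.6 and 95.2, and SKNO-1 had 289, 303 and 303. SKNO-1 exceeded Molm-14 by 3.01 on the log2 scale (SE 0.07, limma adjusted p = 3.94e-15) and MV4-11 by 1.71 (adjusted p = 1.32e-11), and Molm-14 lay below MV4-11 (-1.30, adjusted p = 1.91e-10). The 3 lines were fully separate. With RMC-4550 PIM1 rose in MV4-11 to 146, 137 and 141 CPM, a change of 0.63 (SE 0.07, adjusted p = 1.68e-05). SKNO-1 overlapped its DMSO range, with 284, 301 and 294 CPM (-0.03, SE 0.07, adjusted p = 0.806). Molm-14 had 31.6, 33.9 and 30.7 CPM, a call of lower at -0.20 (SE 0.07, adjusted p = 0.0242) that was lost in 8 of 18 alternative analyses, among them median-ratio scaling, a fit of the line alone and the omission of any of 4 libraries (replicates 1 and 2 with DMSO, 1 and 3 with RMC-4550). The responses of the FLT3-ITD lines differed, with Molm-14 minus MV4-11 at -0.83 (SE 0.10, adjusted p = 6.68e-05), and this held in all 24 alternatives. The PIM1 change in MV4-11 was 0.71 below the 10% mark and 0.62 above it.

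PIM2 (ENSG00000102096, chrX:48913182-48919024), a kinase that supports survival and translation in blood cells, rose in all 3 lines. Molm-14 went from 31.6, 32.9 and 34.0 CPM to 68.9, 48.6 and 70.7 (0.91, SE 0.12, limma adjusted p = 2.72e-05). MV4-11 went from 61.4, 66.0 and 64.1 to 98.9, 92.4 and 108 CPM (0.64, SE 0.12, adjusted p = 0.00253). SKNO-1 went from 69.1, 76.8 and 82.2 to 102, 126 and 117 CPM (0.60, SE 0.12, adjusted p = 0.00205). In each line every treated library was above every DMSO library, and the lowest treated Molm-14 value was again that of replicate 2. The DMSO level was lower in Molm-14 than in MV4-11 (-0.96, adjusted p = 9.6e-06), whereas SKNO-1 and MV4-11 were not shown to differ (0.25, adjusted p = 0.118).

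PIM3 (ENSG00000198355, chr22:49960772-49964072), the third kinase of the family, fell in SKNO-1. That line went from 73.4, 77.7 and 84.2 CPM to 46.2, 59.8 and 54.4, without overlap (-0.56, SE 0.10, limma adjusted p = 0.00059). Molm-14 had 92.3, 96.9 and 103 CPM in DMSO and 104, 86.7 and 99.5 with RMC-4550 (-0.01, SE 0.10, adjusted p = 0.929). MV4-11 had 69.5, 61.5 and 69.2 CPM in DMSO and 62.5, 60.3 and 65.2 with RMC-4550 (-0.09, SE 0.10, adjusted p = 0.633). The groups overlapped in both FLT3-ITD lines. In DMSO PIM3 was higher in Molm-14 than in MV4-11 (0.55, adjusted p = 0.000278). SKNO-1 was called below Molm-14 (-0.31, adjusted p = 0.0117), a call lost with quantile normalization and without replicate 3 of Molm-14 or replicate 1 of SKNO-1. Its PIM3 difference from MV4-11 (0.23) did not pass (adjusted p = 0.0712), except with median-ratio scaling (0.28) and among libraries under 10% mitochondrial reads (0.35). The response of SKNO-1 minus the mean of the FLT3-ITD lines was -0.51 (SE 0.12, adjusted p = 0.0271), a call lost in 9 of 29 alternatives, 7 of which left out 1 library. Those libraries were replicates 1 and 2 of Molm-14 with DMSO, replicate 3 of MV4-11 with RMC-4550, and from SKNO-1 replicates 2 and 3 with DMSO and 1 and 3 with RMC-4550.

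Per kilobase of the longest coding transcript (GENCODE 29), the leading PIM transcript in DMSO was PIM3 in Molm-14, at 41.1 CPM per kb against 15.8 for PIM2 and 13.9 for PIM1. In SKNO-1 it was PIM1, at 113 CPM per kb against 36.6 for PIM2 and 33.1 for PIM3. In MV4-11 the 3 lay close together, at 34.4 for PIM1, 30.8 for PIM2 and 28.2 for PIM3. With RMC-4550 PIM2 went from 15.8 to 30.2 CPM per kb in Molm-14, still below PIM3 at 40.9.

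**Figure D2:**
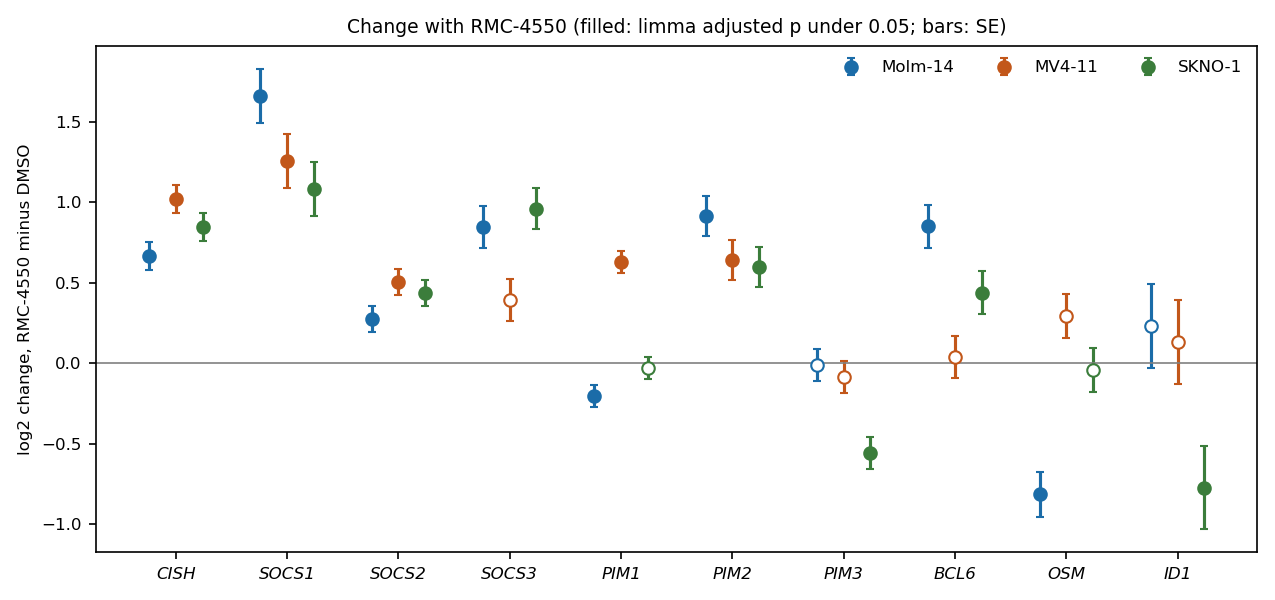
Fitted log2 change with RMC-4550 (vertical axis) for each of the 10 genes, coloured by line, with bars for the SE and filled points for an adjusted p under 0.05 (limma). CISH, SOCS1, SOCS2 and PIM2 are filled and above 0 in all 3 lines, and PIM1, OSM and BCL6 spread between lines.

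BCL6 (ENSG00000113916, chr3:187721377-187745468), the repressor, rose in Molm-14 from 30.2, 29.2 and 29.3 CPM to 48.9, 62.7 and 49.5, a change of 0.85 (SE 0.13, limma adjusted p = 8.71e-05). MV4-11 had 15.4, 13.7 and 17.0 CPM in DMSO and 17.5, 14.6 and 15.2 with RMC-4550, which overlapped (0.04, adjusted p = 0.891). SKNO-1 went from 4.24, 4.50 and 4.90 to 5.14, 6.82 and 6.67 CPM. That rise of 0.44 (SE 0.13, adjusted p = 0.0216) was lost in 7 of 18 alternatives, 4 of which left out 1 library (replicates 1 and 2 with DMSO, 2 and 3 with RMC-4550). With single libraries left out, the BCL6 change in SKNO-1 ran from 0.36 to 0.57. Its adjusted p was 0.0103 in a fit of SKNO-1 alone and 0.00109 with the mitochondrial covariate. The highest treated value in Molm-14 was that of replicate 2, with 15.0% mitochondrial reads, and among the Molm-14 libraries under 10% the change was 0.73. The response of Molm-14 exceeded that of MV4-11 by 0.81 (SE 0.19, adjusted p = 0.0085), a call kept in all 24 alternatives. In DMSO BCL6 followed the order of SOCS2, with Molm-14 above MV4-11 (0.95, adjusted p = 2.01e-05) and MV4-11 above SKNO-1 (SKNO-1 minus MV4-11 -1.75, adjusted p = 2.71e-08).

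OSM (ENSG00000099985, chr22:30262829-30266851), the cytokine gene, fell in Molm-14 from 4.33, 3.63 and 3.90 CPM to 2.19, 2.18 and 2.32, a change of -0.82 (SE 0.14, limma adjusted p = 0.000181). In MV4-11 it had 4.36, 4.60 and 5.03 CPM in DMSO and 5.49, 5.92 and 5.73 with RMC-4550, without overlap but not past the threshold (0.29, SE 0.14, adjusted p = 0.19). SKNO-1 had 4.61, 4.27 and 4.05 CPM in DMSO and 3.66, 4.04 and 4.97 with RMC-4550, which overlapped (-0.04, adjusted p = 0.862). The response of Molm-14 lay below that of MV4-11 (-1.11, SE 0.19, adjusted p = 0.00164), in all 23 alternatives that could be fitted. These values rest on 34 to 117 reads per library. No difference between lines in DMSO passed the test for OSM (adjusted p of 0.447, 0.521 and 0.156).

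ID1 (ENSG00000125968, chr20:31605289-31606510), best known as a target of BMP signalling, had the lowest level per kilobase of the 10 genes in Molm-14, at 0.972 CPM per kb in DMSO. Molm-14 had 1.00, 0.98 and 1.62 CPM in DMSO and 0.98, 2.11 and 1.24 with RMC-4550, from 17 to 33 reads (0.23, SE 0.26, limma adjusted p = 0.478). MV4-11 had 3.87, 2.66 and 2.51 CPM in DMSO and 3.59, 3.24 and 2.94 with RMC-4550 (0.13, adjusted p = 0.797). SKNO-1 went from 6.23, 6.65 and 7.44 to 3.89, 3.76 and 4.18 CPM, a fall that did not overlap (-0.77, SE 0.26, adjusted p = 0.0361). This call was lost in 9 of 17 alternatives, including the omission of any 1 of the 6 SKNO-1 libraries. The ID1 change still lay between -0.83 and -0.71 in those omissions. Its limma adjusted p was 4.55e-05 in a fit of SKNO-1 alone and 0.00472 with the mitochondrial covariate. The response of SKNO-1 minus the mean of the FLT3-ITD lines was -0.96 (SE 0.32) and did not pass (adjusted p = 0.123), though it passed in 3 of 28 alternatives. In DMSO ID1 was higher in SKNO-1 than in Molm-14 (2.50, adjusted p = 2.99e-07) and than in MV4-11 (1.18, adjusted p = 0.00186), and lower in Molm-14 than in MV4-11 (-1.32, adjusted p = 0.000506).

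Counted over the set, RMC-4550 was followed by 6 members higher and 2 lower in Molm-14, where 46.7% of 13971 genes were called, 21.5% higher and 25.2% lower. In MV4-11, 5 were higher and 0 lower, where 13.9% of 14739 genes were called, 5.85% higher and 8.03% lower. In SKNO-1, 6 were higher and 2 lower, where 27.1% of 14670 genes were called, 10.8% higher and 16.2% lower. Higher calls made up 40.0% of all calls in SKNO-1, and 50.5% under median-ratio scaling. In the same order of lines, the median log2 change of the 10 members was 0.47, 0.45 and 0.44, against -0.06, -0.01 and -0.05 over all genes tested. The genes higher in all 3 lines were SOCS1, SOCS2, CISH and PIM2, 4 of 10 members against 3.11% of the 12792 genes tested in every line. No member was lower in all 3 lines, where 5.8% of those genes were. The members were chosen with earlier results of these data known, so the shares are a description only. Treated and DMSO libraries without overlap were found for 6 members higher and 2 lower in Molm-14 (26.9% and 33.1% of genes), 7 higher and 0 lower in MV4-11 (11.1% and 13.5%), and 6 higher and 2 lower in SKNO-1 (26.6% and 35.4%).

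The responses of Molm-14 and MV4-11 differed for 3 of the 10 members, 1 higher and 2 lower in Molm-14, where 19.5% of 13458 genes were called, 10.3% higher and 9.12% lower. The response of SKNO-1 differed from the mean of the FLT3-ITD lines for 1 member, PIM3, which was lower, where 3.8% of 12792 genes were called, 1.35% higher and 2.45% lower. Once the share of mitochondrial reads entered the fit, 4 members passed in each of these comparisons: PIM2 joined the first, and PIM1, SOCS3 and ID1 joined the second.

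CISH and SOCS2 ran in opposite directions across lines and in the same direction within them. Over the 18 libraries Pearson's r of their log2 levels was -0.502, and with the mean of each line removed it was 0.962. PIM1 and SOCS2 had r of -0.931 over the 18 libraries and 0.417 with line means removed. PIM2 and CISH had 0.923 and 0.927, and SOCS1 and CISH had 0.397 and 0.904. These are descriptions over points that share a line, a treatment and a scaling.

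**Figure D3:**
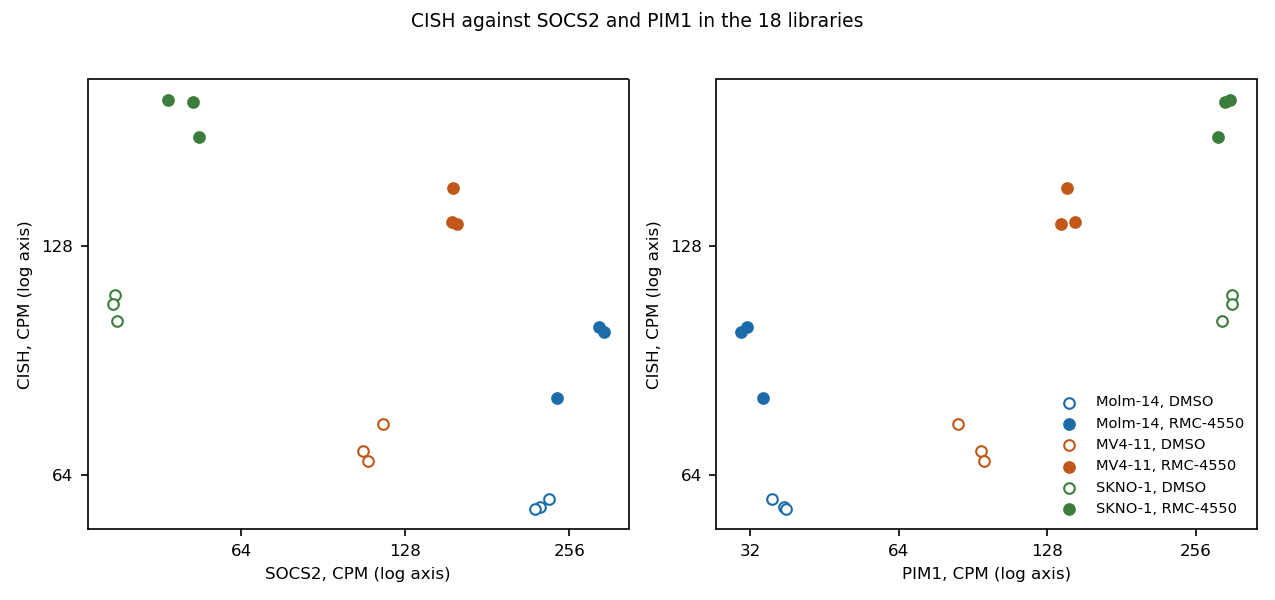
CISH (vertical, CPM, log axis) against SOCS2 (left) and PIM1 (right; both CPM, log axes) in the 18 libraries, with open points for DMSO and filled points for RMC-4550. In every line CISH and SOCS2 are higher with RMC-4550, while SKNO-1 has the lowest SOCS2 and the highest CISH in DMSO.

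Among 11006 genes, those whose log2 level over the 18 libraries was most like CISH were SLA2, ARHGEF18, MILR1, RNF213 and CD84, with r from 0.964 to 0.974. For PIM1 they were ENSG00000227706, SEMA4D, LZTFL1, GALK2 and PLTP, with r from 0.983 to 0.987. For SOCS2 they were GNA15, SDC2, SLC15A4, MIR9-3HG and MFAP4, with r from 0.987 to 0.993. The 3 sets of 5 had no gene in common. These r include the differences between the 3 lines, and r with line means removed was not computed for these genes.

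Receptors upstream of STAT5 include those the lines carry in mutant form. For FLT3 with DMSO, Molm-14 had 622 ± 9.73 CPM (SD, n = 3), MV4-11 had 410 ± 80.8 and SKNO-1 had 328 ± 8.56. FLT3 rose with RMC-4550 in SKNO-1 (0.51, limma adjusted p = 0.0052) and MV4-11 (0.48, adjusted p = 0.0138), and in Molm-14 its change of -0.17 did not pass (adjusted p = 0.258). KIT was at 32.3 ± 1.03 CPM in SKNO-1, 4.97 ± 0.758 in MV4-11 and 0.205 ± 0.114 in Molm-14 with DMSO, was not tested in Molm-14 for its low level, and passed in neither of the other lines. CSF2RB, the shared beta chain of the GM-CSF receptor, was at 60.9 ± 3.34 CPM in SKNO-1, 24.1 ± 6.12 in MV4-11 and 10.9 ± 0.318 in Molm-14, and fell in Molm-14 (-0.60, adjusted p = 0.0249). CSF2RA and IL3RA were not analysed here. Of the receptors tested, 2 of 5 were higher and 1 lower in Molm-14 (IL2RG at 1.82 and CSF3R at 0.97 higher), 1 of 6 higher in MV4-11, and 2 of 6 higher and 1 lower in SKNO-1 (CSF3R at 0.51, EPOR at -0.40). Over all genes tested, 21.5% were higher and 25.2% lower in Molm-14, 5.85% and 8.03% in MV4-11, and 10.8% and 16.2% in SKNO-1.

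The STAT5 genes and JAK2, the kinase that phosphorylates STAT5 at the GM-CSF receptor, passed the test in no line. With DMSO, STAT5B stood at 142 ± 5.69 CPM for Molm-14, 95.1 ± 12.5 for MV4-11 and 102 ± 1.14 for SKNO-1. Its changes were -0.22, -0.02 and -0.22 (limma adjusted p of 0.103, 0.928 and 0.151). STAT5A had 25.4 to 33.6 CPM in the 4 libraries over 10% mitochondrial reads and 56.5 to 86.0 CPM in the other 14, and its changes of -0.18, 0.54 and -0.06 had an SE of 0.39. JAK2 changed by -0.16, -0.01 and 0.24 (adjusted p of 0.246, 0.971 and 0.115). Of the JAK and STAT genes, STAT6 (0.60) and TYK2 (0.50) were higher in Molm-14, 2 of 9 tested, and 0 of 11 tested passed in SKNO-1. Among all genes tested, 21.5% were higher in Molm-14, and 27.1% were called in SKNO-1.

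Other brakes on JAK-STAT signalling include further SOCS genes, phosphatases and PIAS proteins. Of 12 tested, 0 were higher and 3 lower in Molm-14 (SH2B3 at -0.97, SOCS4 at -0.58, SOCS7 at -0.50), 0 passed in MV4-11, and 1 was higher and 1 lower in SKNO-1 (PTPN2 at 0.42, PIAS4 at -0.30). Their median changes were -0.04, -0.05 and -0.17. The shares of all genes were 21.5% higher and 25.2% lower in Molm-14, 5.85% and 8.03% in MV4-11, and 10.8% and 16.2% in SKNO-1. The other genes linked to STAT5 are mainly survival and cell cycle genes. In Molm-14, 6 of 11 were lower, led by CCND1 (-2.12), MYC (-1.71), BCL2 (-1.41) and CCND2 (-0.80). In MV4-11, 1 of 12 was lower (CCND2 at -0.36) and 1 higher, IL2RA, the alpha chain of the IL-2 receptor, which went from 1.98 ± 0.589 to 9.16 ± 1.35 CPM (2.23, adjusted p = 3.59e-06). In SKNO-1, 3 of 12 were lower (CCND1, CCND2 at -0.47 and CCND3 at -0.38). There CCND1 had a mean of only 1.34 CPM in DMSO, close to the filter of 1 CPM. It was at 3 reads or fewer in every treated library. That is at least 9.69-fold lower than in DMSO when 3 reads per library are taken as the floor. MYC, like STAT5A, had its lowest Molm-14 value, 34.3 CPM, in replicate 2 with RMC-4550.

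PRDM1, the plasma cell regulator that BCL6 is known to repress in B cells, rose in all 3 lines by 1.64, 0.56 and 0.79 (limma adjusted p of 4.38e-07, 0.0191 and 0.000939). It was the only 1 of the BCL6 partners and counter-regulators that was higher in any line, and FOXO3 fell in SKNO-1 (-0.32, adjusted p = 0.0409). Of the 6 PIM substrates and partners, 3 were higher and 2 lower in Molm-14 (BAD, AKT1S1 and CXCR4 higher, RPS6KB1 and EIF4EBP1 lower), 2 higher and 1 lower in MV4-11, and 0 higher and 1 lower in SKNO-1. RPS6KB1, the S6 kinase gene, was lower in every line, by changes of -0.65, -0.32 and -0.52. Of the genes that share the BMP link with ID1, ID2 rose in Molm-14 (1.02, adjusted p = 0.000592) and no other passed in any line. No gene of the OSM ligand and receptor family passed, of 2, 2 and 3 tested. Beside these list counts, 21.5% of all genes tested were higher and 25.2% lower in Molm-14, 5.85% and 8.03% in MV4-11, and 10.8% and 16.2% in SKNO-1.

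Transcripts that report ERK pathway output, a list that includes CCND1 as well, are mainly feedback and immediate targets of the kinase. Those that fell were 8 of 8 for Molm-14, 4 of 8 for MV4-11 and 6 of 7 for SKNO-1, with median changes of -1.86, -1.03 and -1.52, the last also with CCND1 at its bound. Lower calls took 25.2%, 8.03% and 16.2% of all genes tested, in the same order of lines. ETV4, an ETS factor gene, had the lowest adjusted p of the list in Molm-14 and in SKNO-1, with changes of -3.47 (limma adjusted p = 7.26e-08) and -3.28 (adjusted p = 2.2e-07). DUSP6, the ERK phosphatase gene, fell in all 3 lines by 0.62, 0.93 and 1.30 on the log2 scale.

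**Figure D4:**
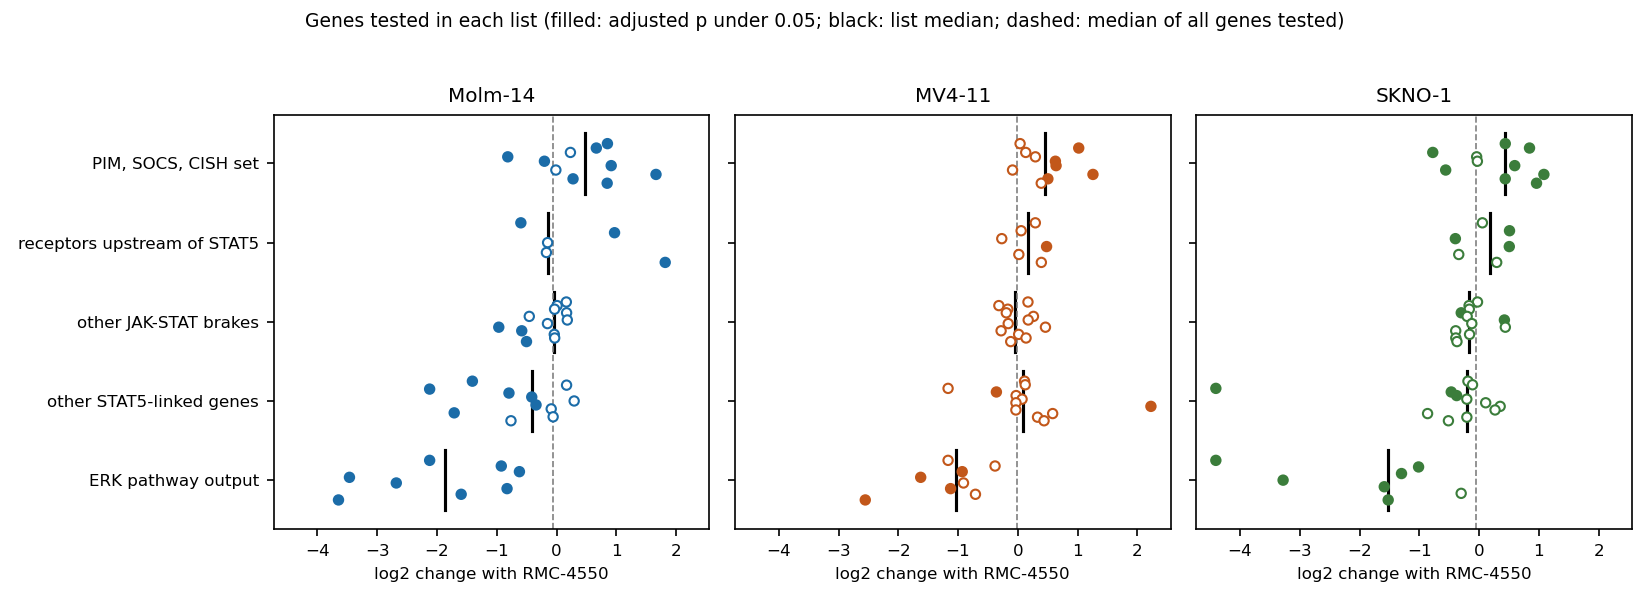
Log2 change with RMC-4550 (horizontal axis) of each gene tested in 5 lists, for each line, with filled points for an adjusted p under 0.05 (limma), a black bar for the list median and a dashed line for the median of all genes tested. The PIM, SOCS and CISH set has medians of 0.47, 0.45 and 0.44, and the ERK output list medians of -1.86, -1.03 and -1.52.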

How the data were processed

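The authors deposited 1 table of log2 values for 40184 Ensembl IDs in 18 libraries. FastQC, STAR, limma and the build GRCh38 are named, per the submitters' processing notes, without versions. Per the labels' protocols, polyadenylated RNA was captured with oligo(dT) beads and read by DNA nanoball sequencing. The deposited log2 values have the form log2 of reads plus 0.5 in CPM, counts scaled to a common library size. Undoing it gave whole reads, within 0.05 of a read, for 100% of values under 50 reads in every library. CPM were computed from these reads and the scaled library, and 40069 IDs were matched to symbols.

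Tests used limma 3.58.1 in R 4.3.3 (lmFit, then two-sided eBayes with a trend) with the deposited log2 values as input, in 1 fit over 18 libraries with 1 coefficient per group, with Benjamini-Hochberg adjustment within each contrast and a threshold of 0.05. Adjusted p-values in the text are from this test. Genes entered with at least 1 CPM in at least 3 libraries, and in at least 3 libraries of a contrast. The script was tested on simulated data. Alternatives were log2(CPM + 1), log2(CPM + 0.1), quantile normalization, no filter, median-ratio scaling, a mean of 5 CPM or more, a separate fit, a replicate block, eBayes without a trend, voom weights, the mitochondrial share as a covariate, only libraries under 10% mitochondrial reads, and leaving out each library. All members are named, up to 4 called genes of each other list and line in order of change, and fixed receptor, JAK2 and STAT5 genes. The members and lists were chosen with earlier results of these data known. Reads are not independent molecules, so floors of 3 reads cover counting error only. Python 3.11.15 and matplotlib 3.10.9 drew the figures. One gene of the JAK and STAT list and the count of that list in MV4-11 are not reported here.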

Additional observations from a re-analysis of the deposited data

Results flagged for a closer look

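A difference in response between lines passed limma's interaction test for 4 members. These were 3 of 10 for Molm-14 minus MV4-11, where 19.5% of all genes tested passed. For SKNO-1 minus the mean of the FLT3-ITD lines it was 1 of 10, where 3.8% of genes passed. The response of PIM1 in Molm-14 minus that in MV4-11 was -0.83 on the log2 scale (limma adjusted p = 6.68e-05), with all 3 treated Molm-14 libraries below and all 3 treated MV4-11 libraries above their DMSO libraries. The PIM1 fall in Molm-14 was itself lost in 8 of 18 alternatives. Molm-14 minus MV4-11 was -1.11 for OSM (adjusted p = 0.00164), again with treated libraries all below DMSO in Molm-14 and all above in MV4-11. For BCL6 it was 0.81 (adjusted p = 0.0085). The response of PIM3 in SKNO-1 minus the mean of the FLT3-ITD lines was -0.51 (adjusted p = 0.0271), a call lost in 9 of 29 alternatives. Single outlying values were not tested for in groups of 3 libraries, though each library was left out in turn.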

How the results depend on the processing

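Calls of members for each response and each level between lines stayed within 1.5 times of 8, 5, 8, 8, 6 and 8 in every alternative run. CISH, SOCS1 and PIM2 kept their calls with RMC-4550 in all 18 alternatives in each line, and SOCS2 in all but the separate fit of Molm-14. The number of members whose response differed between Molm-14 and MV4-11 ran from 3 to 5 as single libraries were left out, reaching 5 when treated replicate 1 of Molm-14 or DMSO replicate 2 of MV4-11 was absent. For SKNO-1 against the mean of the FLT3-ITD lines, 1 member was called. It became 2 with log2(CPM + 1), 0 with no filter, 0 with quantile normalization, 4 with the mitochondrial share as a covariate, 3 among libraries under 10%, and 0 to 1 with single libraries left out. The cause was not tested.

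Reversed signs came from values that did not pass. BCL6 in SKNO-1 against the FLT3-ITD mean (-0.01) became 0.013 with median-ratio scaling and 0.011 among libraries under 10%, and ran from -0.080 to 0.12 with single libraries left out. The same for CISH (0.00) became -0.0052 with quantile normalization and -0.013 under 10%, with a range of -0.048 to 0.054. ID1, Molm-14 minus MV4-11 (0.10), became -0.18 with quantile normalization, -0.28 with the covariate and -0.29 under 10%, with a range of -0.21 to 0.34. ID1 in Molm-14 became -0.095 with quantile normalization and -0.075 under 10% (range -0.075 to 0.47). OSM levels became 0.12 (Molm-14 minus MV4-11) and -0.15 (SKNO-1 minus Molm-14) with quantile normalization, and its SKNO-1 response 0.023 with median-ratio scaling (range -0.16 to 0.056). PIM1 in SKNO-1 became 0.035 with median-ratio scaling. PIM3 in Molm-14 became 0.035 with median-ratio scaling, 0.11 with quantile normalization, 0.0064 with the covariate and 0.065 under 10% (range -0.067 to 0.065), and in MV4-11 0.028 under 10%. SOCS1, Molm-14 minus MV4-11 level, became 0.095, 0.086 and 0.036 with quantile normalization, the covariate and under 10%. SOCS3 under 10% became 0.0063 (SKNO-1 minus MV4-11 level) and -0.019 (Molm-14 minus MV4-11 response). BCL6 in MV4-11 ran from -0.042 to 0.11 with single libraries left out. With 1 library left in an arm, that library is assumed to vary like the other groups.

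Over all genes, the 2045 calls of the MV4-11 response became 674 in a separate fit, 5054 with the covariate and 3897 under 10%, and 1177 without its treated replicate 3. The 3969 of SKNO-1 became 8451, 7270 and 7818 under the same changes. The 2620 of Molm-14 minus MV4-11 became 1149 in a separate fit and ran from 1395 to 5873 with single libraries left out. The 486 of SKNO-1 against the FLT3-ITD mean became 2496 with the covariate and 2356 under 10%. The 6264 of the SKNO-1 minus MV4-11 level became 3991 without replicate 3 of MV4-11 with DMSO. Correlations between libraries with the same replicate number ran from -0.399 to 0.591, and those with different numbers from -0.719 to 0.641. Because these ranges overlap, they cannot decide whether replicate numbers pair the samples. With the replicate block the members called were 8, 5 and 7, and ID1 in SKNO-1 no longer passed. Depth limits ID1 in Molm-14 (17 to 33 reads) and OSM (34 to 117 reads).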
